A study of Homo sapiens with 26 samples.

Results

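LoVo cells that carry the PIK3CA mutation E545K were set against the wild-type LoVo cells (WT) they were made from, with both lines kept in the solvent DMSO and no drug. LoVo is a human colorectal cancer line. The comparison takes 4 of the 26 libraries of the study, 2 of E545K and 2 of WT, chosen by their labelled genotype and treatment, and it covers all genes. Per the series' design, lentiviral vectors brought the mutation into the cells, and the E545K cells used for the drug experiment were the line numbered 2#. The labels used here describe no line that received an empty vector, so the mutation, the transduction and the choice of a line cannot be told apart. Both lines were kept in DMEM medium supplemented with serum, and both share the genetic background of LoVo. The labels' protocols give 72 hours in DMSO and elsewhere a control collection at 48 hours, without saying which libraries that covers. Levels of 3 more kinds of library are given for orientation: E545K and WT cells in 0.5 µM palbociclib, an inhibitor of CDK4 and CDK6, for 72 hours, E545K and WT cells in conditioned medium of senescent cells, and LoVo cells with the PIK3CA mutation H1047R in DMSO. Each of these groups also has 2 libraries, and nothing in the labels says that they came from separate cultures, so the p-values measure the spread between these libraries, which may be technical.

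PIK3CA encodes the catalytic subunit of phosphoinositide 3-kinase, which makes the membrane lipid PIP3 and so brings AKT to the membrane. AKT in turn restrains FOXO transcription factors, and with mTOR complex 1 it favours protein and lipid synthesis. Mutations at E545, in the helical domain, relieve inhibition by the regulatory subunit and are among the common PIK3CA changes of colorectal cancer.

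Levels are FPKM, a fragment count corrected for the length of the transcript and for how many fragments were mapped in that library. A gene was tested where it reached an FPKM of 1 in at least 2 of the 18 libraries of the table, which held for 12607 of 18165 genes. The test was limma on log2(FPKM + 1), run once on FPKM as deposited and once on FPKM divided by a scale factor per library. A gene is called higher or lower only where both runs gave an adjusted p under 0.05 in the same direction. The printed log2 change is E545K minus WT on scaled values, with its standard error (SE), and the printed adjusted p is the larger one of both runs.

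The WT DMSO libraries lay at one end of the table, with the WT palbociclib libraries next to them. Cytosolic ribosomal protein genes took 20.6% and 22.1% of all FPKM in E545K DMSO and 27.4% and 27.7% in WT DMSO. Scale factors were 1.029 and 1.009 in E545K DMSO and 0.837 and 0.830 in WT DMSO, the lowest of the 18. WT palbociclib came next, with ribosomal protein shares of 25.7% and 26.5% and scale factors of 0.9345 and 0.9279, whereas WT cells in conditioned medium had shares of 21.7% and 21.9%. The median log2 change over all tested genes was 0.25 on FPKM as deposited and 0.01 on scaled values. Why these WT libraries differ was not tested, and with no other untreated WT library it cannot be told apart from the genotype. For this reason the levels of WT cells in both other media stand beside many genes below. Read depth is unknown, since the table holds no counts.

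Of the 12607 genes, 3202 (25.4%) were called higher in E545K and 1311 (10.4%) lower. Higher genes thus made up 71.0% of the calls, against 82.3% on FPKM as deposited alone (6096 higher, 48.4% of genes, and 1311 lower) and 51.5% on scaled values alone (3202 higher and 3010 lower, 23.9% of genes). The balance between higher and lower genes therefore depends on the scaling. In all 4513 called genes both E545K libraries lay on the same side of both WT libraries, as they did in 7497 of the tested genes, called or not. A change of at least 1 on the log2 scale in both runs was met by 189 of the higher and 134 of the lower genes.

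PIK3CA itself had 8.20 and 7.37 FPKM in E545K DMSO, against 5.38 and 5.42 FPKM in WT DMSO. The libraries did not overlap, but the log2 change of 0.21 (SE 0.11) was not called, with an adjusted p of 0.123. On FPKM as deposited alone it passed, with a log2 change of 0.46. H1047R cells in DMSO had 6.36 and 7.19 FPKM. Under palbociclib PIK3CA was called higher, with 10.39 and 9.92 FPKM in E545K and 7.23 and 6.68 FPKM in WT (adjusted p 0.0278), and so it was in conditioned medium, with 15.15 and 16.25 FPKM in E545K and 6.20 and 5.93 FPKM in WT (adjusted p 1.09e-06). The values do not separate transcripts of the introduced copy from those of the cell's own gene, and the mutation cannot be seen in them.

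MSLN, PTN and CRIP1 were among the genes with the largest rises in E545K. MSLN, which encodes mesothelin, a surface protein anchored by a lipid, had 12.39 and 12.61 FPKM in E545K, against 0.64 and 0.74 FPKM in WT, a log2 change of 2.86 (SE 0.14, adjusted p 1.23e-09). H1047R cells had 0.37 and 0.59 FPKM, as low as WT. PTN, which encodes the heparin-binding growth factor pleiotrophin, had 5.89 and 5.44 FPKM in E545K, against 0.20 and 0.28 FPKM in WT (log2 change 2.35, SE 0.14, adjusted p 1.33e-08). CRIP1, which encodes a small LIM-domain protein, had 33.63 and 38.38 FPKM in E545K and 6.13 and 4.67 FPKM in WT (log2 change 2.29, SE 0.15, adjusted p 3.64e-08). All 3 genes were lower in both WT libraries, as their choice required, and CRIP1 was at 0.26 and 0.10 FPKM in H1047R. PTN reached an FPKM of 1 in E545K libraries only, so it passed the filter through the line where it was high.

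ICAM1, the adhesion receptor for leukocyte integrins, had 5.46 and 5.23 FPKM in E545K, against 0.35 and 0.58 FPKM in WT (log2 change 2.01, SE 0.10, adjusted p 1.35e-09). ICAM1 stayed between 0.45 and 0.59 FPKM in H1047R DMSO and in WT cells in both other media. It reached an FPKM of 1 in E545K libraries only, so it too passed the filter through the line where it was high. SLCO2A1, a prostaglandin transporter, had 27.95 and 27.58 FPKM in E545K and 5.72 and 5.53 FPKM in WT (log2 change 1.87, SE 0.08, adjusted p 5.26e-10). SLCO2A1 stood at 7.78 and 8.43 FPKM in WT cells in palbociclib and at 17.72 and 18.71 FPKM in WT cells in conditioned medium.

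Several other risers were far higher in WT cells in conditioned medium than in WT DMSO, and PPP1R10, IL37 and ZNF629 were then above untreated E545K cells. LRRN4, a membrane protein with leucine-rich repeats, had 6.82 and 6.92 FPKM in E545K and 0.37 and 0.42 FPKM in WT DMSO (log2 change 2.39, SE 0.10), while WT in conditioned medium had 5.81 and 5.66 FPKM. PPP1R10, a nuclear targeting subunit of protein phosphatase 1, had 13.90 and 13.26 FPKM in E545K and 2.40 and 2.79 FPKM in WT DMSO (log2 change 1.80, SE 0.09), against 32.09 and 32.89 FPKM in WT in conditioned medium. IL37, a cytokine that dampens inflammation, had 24.79 and 24.21 FPKM in E545K and 5.34 and 5.10 FPKM in WT DMSO (log2 change 1.79, SE 0.12), and DKK1, a secreted inhibitor of Wnt signalling, 79.61 and 80.86 FPKM in E545K and 19.62 and 20.17 FPKM in WT DMSO (log2 change 1.68, SE 0.08). In conditioned medium WT cells had 45.31 and 39.71 FPKM of IL37 and 61.13 and 58.34 FPKM of DKK1. Under palbociclib WT cells had 1.00 and 1.45 FPKM of LRRN4, 3.27 and 3.76 FPKM of PPP1R10, 11.12 and 11.25 FPKM of IL37 and 33.55 and 33.66 FPKM of DKK1. In these 4 genes WT cells were thus low in DMSO and in palbociclib, and higher in conditioned medium. FAM151A rose by a log2 change of 2.34 (SE 0.16), ZNF629, a zinc finger gene, by 1.67 (SE 0.08), and OR2A7, an olfactory receptor gene, by 1.64 (SE 0.24). WT cells in conditioned medium had 25.55 and 20.72 FPKM of FAM151A, against 4.35 and 4.14 FPKM in WT DMSO. ZNF629 was at 7.28 and 7.59 FPKM in WT in conditioned medium, 0.77 and 0.69 FPKM in WT DMSO and 4.8 and 5.37 FPKM in E545K DMSO. ANXA8 and its near-identical copy ANXA8L1, which encode annexins that bind membranes in the presence of calcium, rose by 2.33 and 2.28 on the log2 scale, but reads of the pair may have been split between them, so neither value is certain alone.

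MSLN, LRRN4, PTN, ANXA8, ANXA8L1, CRIP1, CRIP2 and KRT7 belong to a list of genes also made in mesothelium. Of its tested members 8 of 12 rose and none fell (median log2 change 1.36). The list was drawn up knowing that several of them rose here. PTN passed the filter through E545K libraries only, so the filter partly set this count.

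The largest falls began with the beta-globin locus on chromosome 11. HBE1, the embryonic beta-type globin, had 4.56 and 5.42 FPKM in E545K, against 143.11 and 152.65 FPKM in WT (log2 change -4.92, SE 0.14, adjusted p 1.55e-11). OR51B5, an olfactory receptor gene of the same region, had 0.67 and 0.39 FPKM in E545K and 13.06 and 14.17 FPKM in WT (log2 change -3.52, SE 0.10, adjusted p 2.52e-11). HBG2, a fetal globin, stood at 0.21 and 0.00 FPKM in E545K and at 4.00 and 3.38 FPKM in WT (log2 change -2.3, SE 0.16). Of 9 tested genes of the region 6 fell and none rose. OR51B5 reached an FPKM of 1 in WT libraries only, so it passed the filter through the line where it was high. The filter therefore partly set this count. In GRCh38 the 6 called genes lie in the order HBG2 (from 5253188), HBE1 (from 5268345), OR51B4, OR51B5, OR51I1 and OR52D1 (to 5489749), and all 6 were lower in E545K in DMSO, in palbociclib and in conditioned medium. The next tested genes on that chromosome in the list, TRIM5, TRIM6 and TRIM34, were not called. The annotated span of OR51B5, from 5340318 to 5505652, holds OR51I1 and OR52D1, and the counting is not stated to use strand, so reads of overlapping genes here cannot be told apart. The alpha-globin gene HBA2, on chromosome 16, also fell (log2 change -2.49, SE 0.47, adjusted p 0.00127), though its copies share reads and its level in WT cells in palbociclib differed between libraries, at 6.71 and 17.18 FPKM. H1047R cells had 0.29 and 0.68 FPKM of HBE1, also far under WT.

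MAGEA6 and MAGEA3, cancer-testis genes that in adults are normally made in germ cells, were near 0 in E545K. MAGEA6 was listed at 0.05 and 0.00 FPKM in E545K, against 8.25 and 9.18 FPKM in WT (log2 change -3.48, SE 0.09, adjusted p 1.55e-11), and MAGEA3 at 0.05 and 0.00 FPKM in E545K, against 2.2 and 2.23 FPKM in WT. The 2 genes are close copies and may share reads. Of 39 MAGE, GAGE and related genes 5 passed the filter on low values, and of these 3 were called lower and 1, GAGE1, higher, at 0.55 and 0.94 FPKM in E545K and 0.04 and 0.06 FPKM in WT. MAGEA6 reached an FPKM of 1 in WT libraries only, so it passed the filter through the line where it was high. The filter therefore partly set the count of lower calls, which is not a test of the family. MAGEA6 was at 10.88 and 12.01 FPKM in WT in palbociclib, at 20.97 and 19.75 FPKM in WT in conditioned medium and at 0.07 FPKM in both H1047R DMSO libraries.

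CCL26, an eosinophil-attracting chemokine, had 3.53 and 3.20 FPKM in E545K, against 45.66 and 41.91 FPKM in WT (log2 change -3.64, SE 0.20, adjusted p 2.04e-08). FGFBP1, a carrier that releases fibroblast growth factors from the matrix, had 40.01 and 44.86 FPKM in E545K and 297.79 and 300.74 FPKM in WT (log2 change -3.08, SE 0.09, adjusted p 6.82e-11). NRN1, a small lipid-anchored protein known from neurite growth, had 112.96 and 109.63 FPKM in E545K and 463.91 and 458.16 FPKM in WT (log2 change -2.33, SE 0.07). Both WT DMSO libraries were higher in each of these 3 genes, as their choice required. In WT cells CCL26 was at 18.46 and 19.20 FPKM in palbociclib but at 3.33 and 4.28 FPKM in conditioned medium, close to untreated E545K cells. FGFBP1 was at 178.08 and 188.15 FPKM in WT cells in palbociclib and at 82.70 and 100.89 FPKM in conditioned medium. A2ML1, a protease inhibitor, fell by 2.39 on the log2 scale (SE 0.09), AGMO, an enzyme that cleaves ether lipids, by 2.58 (SE 0.11), and S100P, a calcium-binding protein of many carcinomas, had a log2 change of -2.70 (SE 0.16). S100P was at 209.99 and 225 FPKM in WT in palbociclib, but at 9.06 and 10.61 FPKM in WT in conditioned medium, below the 24.56 and 30.14 FPKM of untreated E545K cells, against 151.87 and 147.19 FPKM in WT DMSO. Of the 12 S100 genes tested 5 were called lower and none higher, among them S100A4, S100A6 and S100A14.

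**Figure D1:**
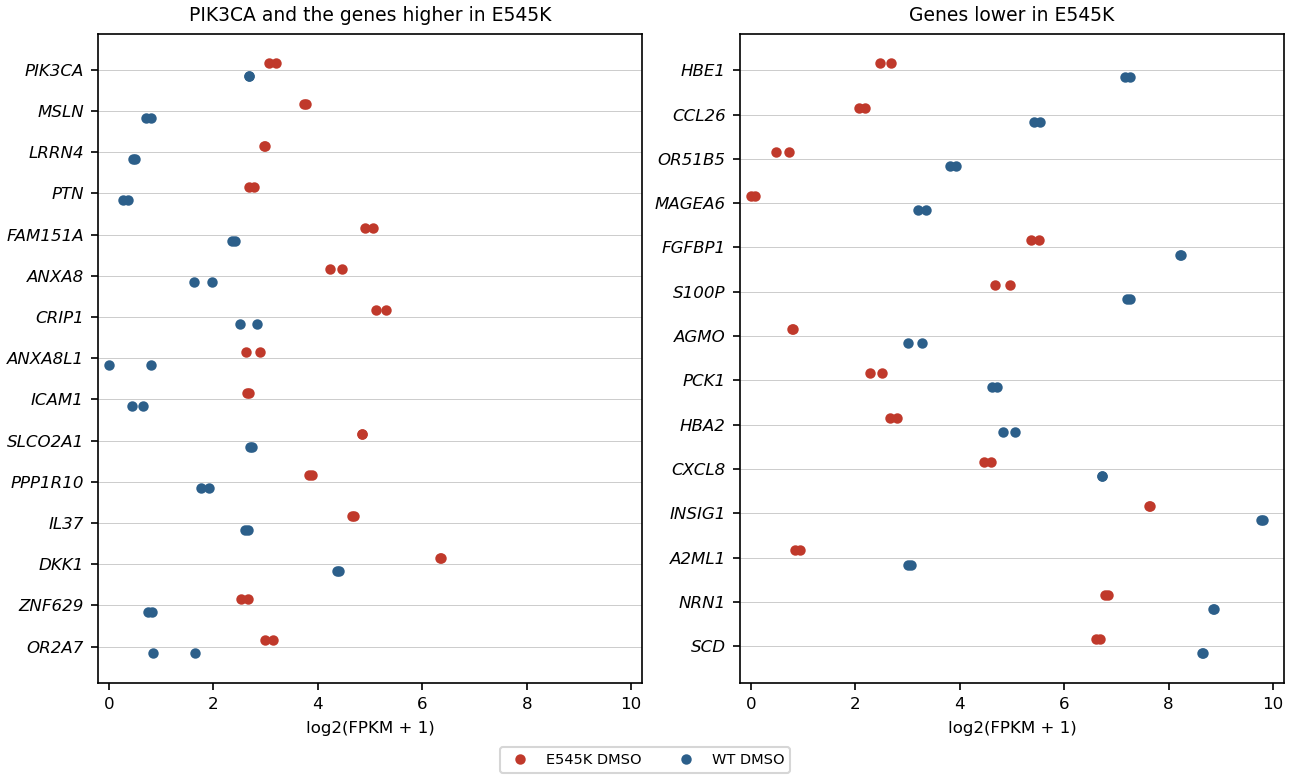
Level of PIK3CA and of the 28 named genes in each library, as log2(FPKM + 1); each point is 1 library, with E545K DMSO above WT DMSO for each gene. The 2 libraries of a line lie close together in nearly all genes. No gene has overlapping lines, which the choice of the 28 genes required. No overlap was also seen in 7497 of the 12607 tested genes.

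Lists of genes with a shared role were then read against the calls over all genes, 25.4% higher and 10.4% lower. More members were called higher on FPKM as deposited alone in 38 of the 41 lists, and on TPM in 40. In the list of the PI3K, AKT and mTOR pathway, 3 of 36 members were higher and 2 lower, fewer than over all genes, and the median log2 change was -0.09 (0.01 over all genes). On scaled values alone, and with quantile normalization, more members were lower than higher (9 to 3 and 8 to 4), but 12 were higher and 2 lower on FPKM as deposited, and 13 and 0 on TPM. RPTOR, the substrate-binding subunit of mTOR complex 1, had 6.00 and 5.52 FPKM in E545K, against 2.80 and 3.07 FPKM in WT (log2 change 0.56, SE 0.10, adjusted p 0.000325). SGK1, a kinase related to AKT, had 9.18 and 8.37 FPKM in E545K and 4.39 and 5.07 FPKM in WT (log2 change 0.53, SE 0.10), and was also higher in E545K in both other media. INPP5D, a phosphatase that removes a phosphate from PIP3, rose by 0.54 on the log2 scale, but was called lower in E545K in both other media, while INPP4B, a phosphatase acting on a later lipid of the same route, fell by 0.54 and the kinase SGK3 by 0.67. The 2 lower calls did not both hold when any 1 library was left out, a step that also made lower calls fewer over all genes. AKT1, AKT2, MTOR and PIK3R1 were not called, with log2 changes from 0.03 to 0.11.

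Genes of the insulin response and targets of FOXO factors were more often lower: 6 of 22 fell and 1 rose (median log2 change -0.37). IRS1, an adaptor that links the insulin receptor to PI3K, had 8.81 and 8.29 FPKM in E545K, against 2.3 and 2.37 FPKM in WT (log2 change 1.3, SE 0.09, adjusted p 4.69e-08). The related adaptor IRS2 moved the other way, with 17.58 and 16.27 FPKM in E545K and 30.91 and 31.01 FPKM in WT (log2 change -1.12, SE 0.08, adjusted p 7.06e-07). PCK1, which starts gluconeogenesis, had 4.69 and 3.87 FPKM in E545K and 23.59 and 25.07 FPKM in WT (log2 change -2.54, SE 0.17). For each of these genes the libraries were apart by line, as they were in 7497 of the 12607 tested genes. BCL6, a transcriptional repressor, fell by 1.62, TXNIP, which curbs glucose uptake, by 1.32, and FOXO3 itself by 0.91. In conditioned medium IRS1 was called lower and FOXO3 higher in E545K than in WT.

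Among the ligands, receptors and brakes of the EGFR family, 4 of 17 were higher and 4 lower (median log2 change -0.05). The called receptors were higher, and of 4 called ligands 3 were lower. Without WT replicate 1 the higher calls dropped to 2. EGFR had 76.39 and 73.16 FPKM in E545K, against 22.43 and 25.57 FPKM in WT (log2 change 1.32, SE 0.15, adjusted p 4.42e-06). ERBB3 rose by 0.30 and ERBB2 by 0.28 on the log2 scale. Among ligands, AREG had 191.55 and 198.93 FPKM in E545K and 464.38 and 451.58 FPKM in WT (log2 change -1.52, SE 0.11), HBEGF fell by 1.03 and EREG by 0.63, while BTC rose by 0.43. ERRFI1, a feedback inhibitor of EGFR, fell by 0.69 and was lower in all 3 media.

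Output and feedback genes of the ERK cascade were lower in 9 of 23 cases and higher in 4 (median log2 change -0.26). DUSP10, a phosphatase acting on JNK and p38, had 5.2 and 4.97 FPKM in E545K, against 15.83 and 16.58 FPKM in WT (log2 change -1.77, SE 0.10, adjusted p 4.59e-08). DUSP5, a nuclear ERK phosphatase, had 175.64 and 181.11 FPKM in E545K and 376.43 and 379.98 FPKM in WT (log2 change -1.37, SE 0.10). SPRY1, SPRY2 and SPRY4, which restrain receptor signalling, fell by 0.69, 0.66 and 0.79. The ERK phosphatase DUSP6 rose by 0.28 and MYC by 0.51, so the list did not move as a block. SPRY1, SPRY2, SPRY4 and FOSL1 were lower in E545K in all 3 media.

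Immediate early genes, the first to be transcribed after a stimulus, and AP-1 subunits showed 13 of 25 members lower and 2 higher (median log2 change -0.60). JUND had 120.35 and 133.05 FPKM in E545K, against 346.20 and 361.10 FPKM in WT (log2 change -1.76, SE 0.13, adjusted p 3.03e-07). ZFP36, which destabilises cytokine mRNAs, had 20.97 and 20.54 FPKM in E545K and 50.84 and 48.87 FPKM in WT (log2 change -1.51, SE 0.10). JUN fell by 0.91, JUNB by 1.19, KLF6 by 1.3 and NR4A1 by 1.03. The 2 members that rose were BTG2, an antiproliferative gene, and EGR1, a zinc finger factor. EGR1 had 8.53 and 8.15 FPKM in E545K and 2.66 and 2.70 FPKM in WT (log2 change 1.12, SE 0.11). Under palbociclib 19 members were lower in E545K than in WT, while in conditioned medium 5 were lower and 6 higher.

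**Figure D2:**
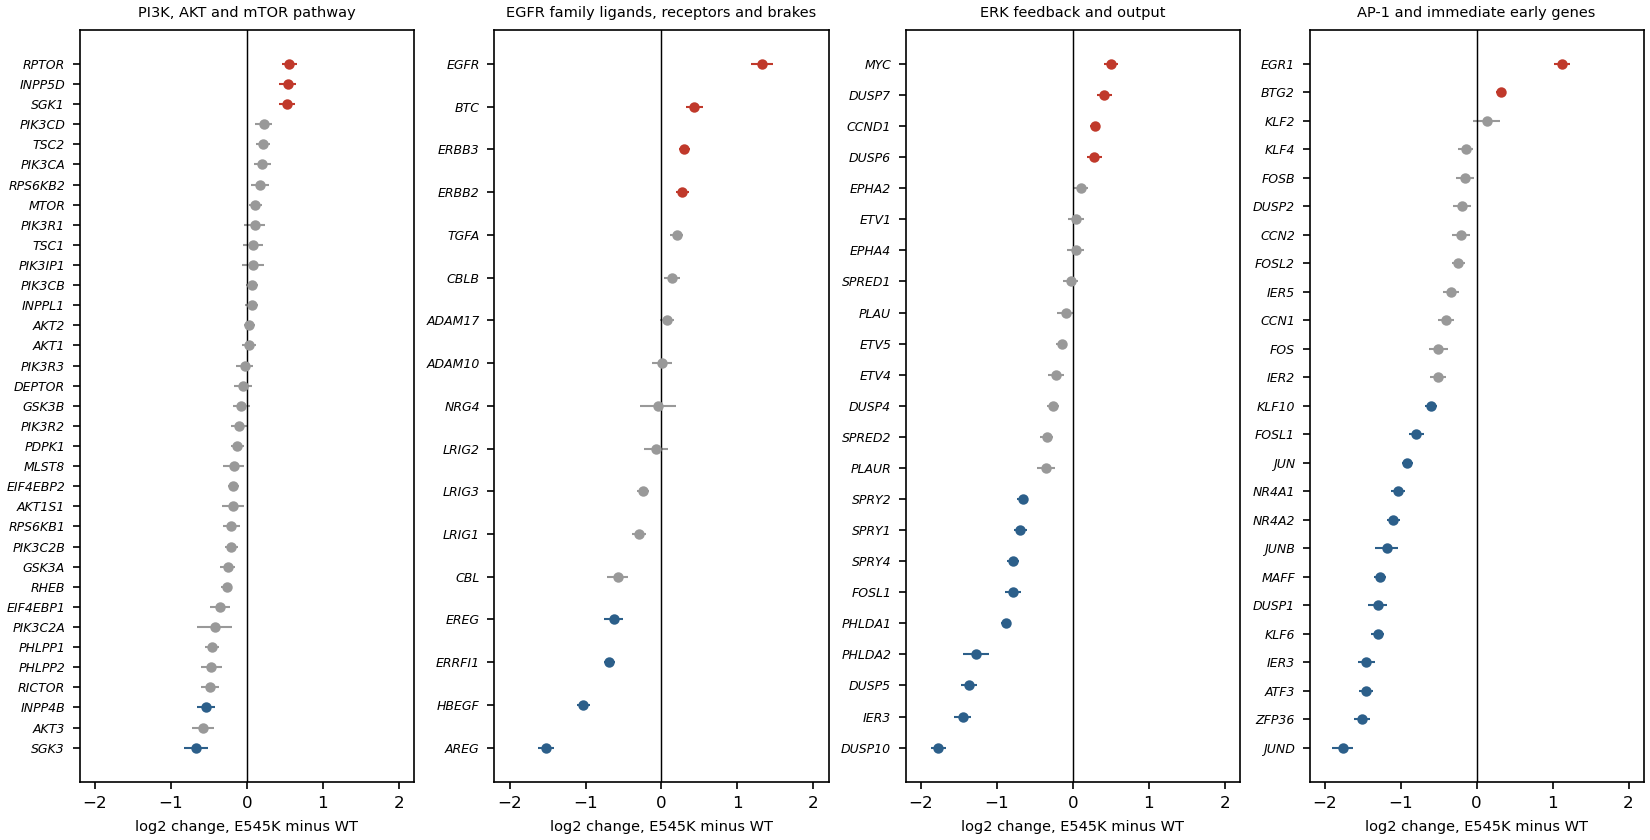
Log2 change of the tested members of 4 signalling lists, with 1 member not shown, E545K minus WT in DMSO on scaled FPKM, with bars of 1 SE; red points were called higher, blue points lower, and grey points were not called. Most of the PI3K list is grey and near 0, EGFR and EGR1 stand to the right, and AREG, DUSP10 and JUND to the left.

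Chemokines, cytokines and NF-kB genes split into a higher and a lower set, 8 and 15 of 43 (median log2 change -0.21). The lower set held the neutrophil-attracting chemokines CXCL1, CXCL2, CXCL3 and CXCL8. CXCL8 had 23.21 and 21.18 FPKM in E545K, against 104.89 and 104.75 FPKM in WT (log2 change -2.48, SE 0.18, adjusted p 2.23e-07), and CXCL3 fell by 1.22. CCL20, which attracts lymphocytes and dendritic cells, was at 0.78 and 0.56 FPKM in E545K and 4.07 and 3.28 FPKM in WT (log2 change -1.70, SE 0.25). TNF fell by 1.51, lymphotoxin LTB by 1.65 and the inhibitor NFKBIA by 1.23. The higher set held ICAM1, TNFAIP2 (log2 change 1.48), IL33 (0.74), IL1B (0.50), LIF (0.37) and CSF1 (0.39). Of these, ICAM1 passed the filter on low values through E545K libraries only. Over the whole list 21 members were higher and 5 lower under palbociclib, and 17 higher and 8 lower in conditioned medium. CXCL2, CXCL3 and CCL20 were higher in E545K than in WT in both other media, the reverse of DMSO.

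Genes of cell division were higher in E545K. In DNA replication and nucleotide synthesis, 33 of 57 members rose and 1 fell (median log2 change 0.36). FEN1, which trims Okazaki fragments, had 44.75 and 48.40 FPKM in E545K, against 20.28 and 20.44 FPKM in WT (log2 change 0.88, SE 0.10, adjusted p 4.04e-06). POLE2, a subunit of polymerase epsilon, rose by 0.97, POLA2, a subunit of polymerase alpha, by 0.85, and PCNA, the sliding clamp, by 0.49, whereas DSCC1, a clamp-loading factor, fell by 0.64. In homologous recombination and the Fanconi pathway, 17 of 38 rose and none fell (median 0.29), led by BRCA1 with 5.93 and 5.56 FPKM in E545K and 1.52 and 1.11 FPKM in WT (log2 change 1.37, SE 0.17, adjusted p 1.09e-05). The nuclease scaffold SLX4 rose by 1.14. For mitosis and the spindle 25 of 49 rose and 1 fell (median 0.24), with the condensin subunit NCAPH at 0.73 and separase, ESPL1, at 0.68. Of 8 mismatch repair genes 4 rose and none fell, among them PMS2 by 0.41.

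Cyclins, kinases and their inhibitors were called higher in 9 of 28 cases and lower in 5. CCNE2, an activator of CDK2, was at 2.97 and 3.30 FPKM in E545K, against 0.61 and 0.70 FPKM in WT (log2 change 1.19, SE 0.12). CDKN1C, the inhibitor p57, had 15.83 and 15.72 FPKM in E545K and 49.23 and 52.14 FPKM in WT (log2 change -1.91, SE 0.13, adjusted p 1.93e-07). CDKN2D, the CDK4 and CDK6 inhibitor p19, fell by 1.18, CCND2 by 1.10 and RB1 by 0.87, while CCND1 rose by 0.29 and the repressor E2F7 by 1.03. CDKN1C and CDKN2D were lower in E545K in all 3 media. In the MYC network and ribosome biogenesis 18 of 40 rose and 5 fell. POLR1A, the large subunit of RNA polymerase I, rose by 0.65, and MXD1, which opposes MYC at its targets, fell by 1.41.

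The calls for these division lists differed between media. Replication genes were higher in E545K in 46 cases and lower in 1 under palbociclib, but higher in 2 and lower in 13 in conditioned medium. The summed FPKM of the 57 replication genes was 1498 and 1515 in E545K DMSO and 978 and 988 in WT DMSO, against 851 and 861 in WT in palbociclib and 1988 and 1842 in WT in conditioned medium. WT cells were low in DMSO and in palbociclib. In bulk RNA a smaller share of cycling cells and less RNA of these genes per cell cannot be told apart.

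Promoters of the replication, mitosis and chemokine lists are shown because a promoter pattern searched in each list was found often in it. The sequences are from RefSeq (GRCh38.p14), read 5′ to 3′ on the strand of the gene, and end at or before the annotated start. Capitals mark the motif, searched on both strands in the 250 bases before the start. The E2F motif was searched as TTTCCCGC or TTTGGCGC.
TYMS, chr18:657584-657651, plus strand: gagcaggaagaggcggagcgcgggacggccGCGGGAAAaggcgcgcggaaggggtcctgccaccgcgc
CDC7, chr1:91501014-91501081, plus strand: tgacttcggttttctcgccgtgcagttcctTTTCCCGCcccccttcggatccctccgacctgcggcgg
ORC3, chr6:87590093-87590134, plus strand: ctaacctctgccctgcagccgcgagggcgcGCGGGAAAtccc
Mitotic genes were searched for the CHR element, TTTGAA.
ESPL1, chr12:53268238-53268298, plus strand: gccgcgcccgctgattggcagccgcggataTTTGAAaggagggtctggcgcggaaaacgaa
ASPM, chr1:197146747-197146812, minus strand: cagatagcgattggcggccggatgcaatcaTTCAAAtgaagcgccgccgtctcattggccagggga
HMMR, chr5:163460574-163460631, plus strand: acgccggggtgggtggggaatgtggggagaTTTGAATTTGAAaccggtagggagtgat
Chemokine and NF-kB genes were searched for GGGNNTTCC, a simplified pattern. Other spellings of an NF-kB site stay in small letters, such as gggaatttcc before CXCL3.
TNFAIP2, chr14:103123334-103123402, plus strand: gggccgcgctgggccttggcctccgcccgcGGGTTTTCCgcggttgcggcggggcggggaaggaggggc
CXCL3, chr4:74038704-74038772, minus strand: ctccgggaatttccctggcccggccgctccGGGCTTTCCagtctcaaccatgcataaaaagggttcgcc
CCL20, chr2:227813733-227813801, plus strand: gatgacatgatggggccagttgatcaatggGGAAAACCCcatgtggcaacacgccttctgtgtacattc

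The E2F motif was in 14 of the 48 replication genes with a promoter in the table (29.2%), against 1.93% of all 35116 promoters, and 7 of these 14 genes were called. The CHR element was in 23 of 42 mitotic genes (54.8%), 10 of them called, against 13.3% of all promoters. The simplified NF-kB pattern was in 11 of 35 genes of its list (31.4%), 8 of them called, against 5.78% of all promoters. In the whole lists 33 of 57 replication genes rose and 1 fell, and 25 of 49 mitotic genes rose and 1 fell. In the chemokine and NF-kB list 8 of 43 rose and 15 fell. Over all tested genes 35.8% were called. Whether holding a motif goes with a call was not tested. The sequences shown are of called genes only. TNFAIP2, which rose, and CXCL3 and CCL20, which fell, all held the simplified NF-kB pattern, so holding it did not go with one direction. In all, 11 patterns were searched over the lists, and the motifs and the 3 sets of sequences shown were picked after seeing which were frequent, so the shares above are not a test. CCAAT was in 71.4% of the mitotic genes and in 32.0% of all promoters. For sterol genes TCACNCCAC was in 1 of 23 promoters (0.883% of all) and the looser TCACNCNAC in 3 (2.02% of all). For ATF4 targets TGATGCAA and the looser TGATGNAA were each in 3 of 27 (0.772% and 3.14% of all). For immediate early genes TGACGTCA was in 2 of 20 (1.65% of all), TGAGTCA or TGACTCA in 0 (4.2% of all), and 3 spellings of the serum response motif in 1 (0.0854% of all). These matches describe letters in a window and not bound sites.

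Lipid synthesis genes were lower in E545K. In sterol synthesis and uptake, 20 of 31 members fell and 2 rose (median log2 change -0.89). INSIG1, which holds the sterol sensor SCAP in the endoplasmic reticulum, had 199.63 and 197.27 FPKM in E545K, against 869.92 and 889.48 FPKM in WT (log2 change -2.43, SE 0.09, adjusted p 1.7e-10). The fall ran through the mevalonate route: HMGCS1 fell by 2.14, MVD by 1.41 and IDI1 by 1.22. It went on in the later sterol steps, where CYP51A1 fell by 1.53 and MSMO1 by 1.78. The 2 members called higher were SCAP (0.39) and INSIG2 (0.31), and leaving out 1 library left 0 or 1 such call. In fatty acid synthesis 11 of 23 fell and 2 rose (median -0.48). SCD, which makes monounsaturated fatty acids, had 101.90 and 96.41 FPKM in E545K and 403.67 and 400.03 FPKM in WT (log2 change -2.3, SE 0.07, adjusted p 1.11e-10), ACSS2, which makes acetyl-CoA from acetate, fell by 1.92 and FASN by 1.19.

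Under palbociclib 23 of 31 sterol genes were lower in E545K and 2 higher, but in conditioned medium 14 were higher and 1 lower. Fatty acid genes were lower in 11 cases and higher in 2 under palbociclib, and in conditioned medium 6 were lower and 4 higher. INSIG1 had 19.71 and 16.19 FPKM in E545K and 429.18 and 433.59 FPKM in WT under palbociclib, and 123.55 and 126.66 FPKM in E545K and 105.98 and 122.33 FPKM in WT in conditioned medium. H1047R cells in DMSO had 164.98 and 162.04 FPKM of INSIG1. WT cells were thus above all these other groups in DMSO and in palbociclib, and not in conditioned medium.

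Targets of ATF4, a factor of the response to amino acid shortage and protein stress, were more often lower. Of 33 ATF4 targets, 13 fell and 1 rose (median log2 change -0.43). DDIT3, a factor of prolonged stress, had 31.52 and 32.92 FPKM in E545K, against 67.97 and 73.35 FPKM in WT (log2 change -1.39, SE 0.10, adjusted p 3.9e-07), and DDIT4, an inhibitor of mTOR complex 1, fell by 1.34. CBS, an enzyme of cysteine synthesis, was the member that rose, to 1.21 and 1.01 FPKM in E545K, against 0.15 and 0.00 FPKM in WT. In conditioned medium 20 ATF4 targets were higher in E545K and none lower. Among 21 heat shock genes 7 fell and 1 rose, though on TPM 3 fell and 6 rose. DNAJB1 had 53.77 and 60.15 FPKM in E545K and 120.92 and 126.85 FPKM in WT (log2 change -1.40, SE 0.10). HSPA1B fell by 1.37, but it shares reads with a near-identical copy. Endoplasmic reticulum chaperones were called higher in 5 of 27 cases and lower in 2 (20 and 2 on FPKM as deposited, 20 and 0 on TPM, 13 and 3 with quantile normalization, and 2 higher without E545K replicate 2 or WT replicate 1), with CALR, a lectin chaperone, up by 0.67.

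Of 34 p53 targets 13 were lower and 9 higher, a balance that turned on FPKM as deposited (13 and 15) and on TPM (11 and 16). The stress cytokine GDF15 had 422.44 and 483.03 FPKM in E545K, against 890.90 and 929.35 FPKM in WT (log2 change -1.3, SE 0.14), and PLK2 fell by 1.44 and the decoy receptor TNFRSF10D by 1.61. XPC, which recognises DNA damage, rose by 1.20. GDF15 and PLK2 were lower in E545K in all 3 media. NRF2 targets and metallothioneins were mixed, with 6 of 34 higher and 10 lower, and again more higher than lower on FPKM as deposited (13 and 10) and on TPM (16 and 10). GPX2, a glutathione peroxidase of the gut, was at 2.43 and 1.56 FPKM in E545K and 7.76 and 9.67 FPKM in WT (log2 change -1.96, SE 0.17). The metal-binding MT1E rose by 1.09. For glycolysis and hypoxia, 23.7% of members were higher and 13.2% lower, near the 25.4% and 10.4% of all tested genes. Glycolysis and hypoxia genes split 9 higher and 5 lower of 38, with EGLN3 up by 0.96 and VEGFA, the vascular growth factor, down by 1.36; on scaled values alone the split was 9 and 10, and without E545K replicate 2 or WT replicate 1 the higher calls dropped to 4.

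Cytosolic ribosomal protein genes fell as a group: 78 of 85 were lower and 2, RPL7L1 and RPL39L, higher (median log2 change -0.73). With quantile normalization 35 were lower and 5 higher, and without E545K replicate 1 the lower calls dropped to 48. The called falls ran from -1.16 to -0.56, where the calling itself partly set the end nearer 0. Over all 85 tested members the log2 change ran from -1.16 to 0.58. Under palbociclib 76 members were lower, and in conditioned medium 56. Since these genes take a large share of all FPKM, their level also enters the scaling of every other gene. Mitochondrial ribosomal proteins did not follow (14 of 78 higher and 4 lower, though 14 and 16 on scaled values alone, and 9 higher without E545K replicate 2 or WT replicate 1), and among nuclear subunits of oxidative phosphorylation 1 of 79 was higher and 4 lower, but 19 and 4 on FPKM as deposited, 37 and 3 on TPM and 18 and 4 with quantile normalization.

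**Figure D3:**
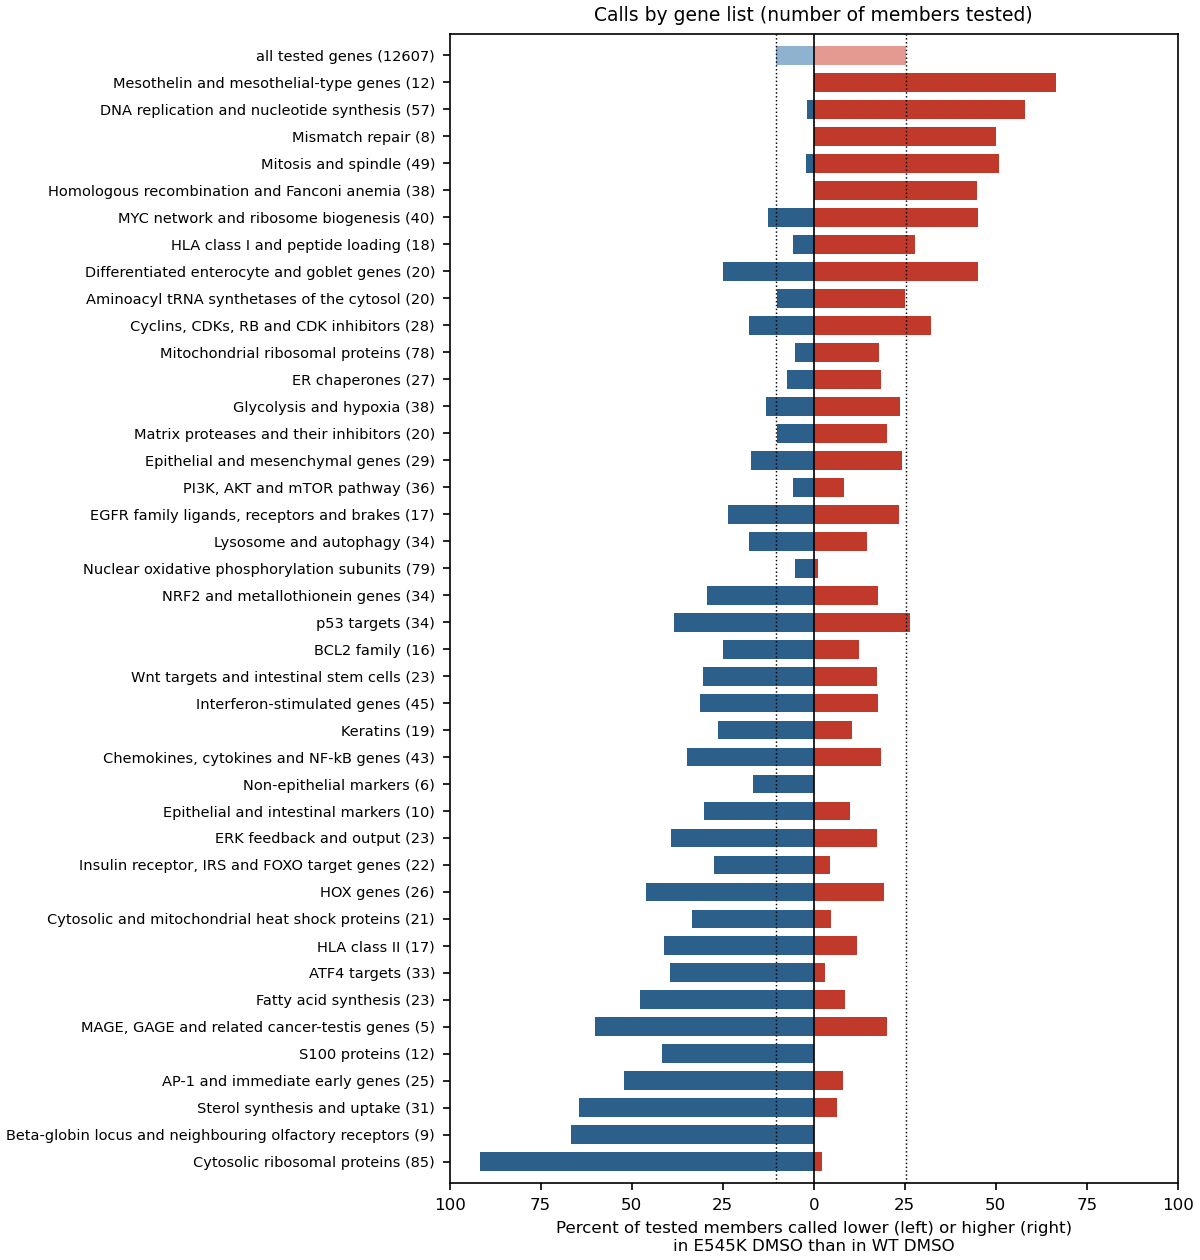
Percent of the tested members of each of the 41 gene lists called higher (red, to the right) or lower (blue, to the left) in E545K DMSO than in WT DMSO, with the number of members tested in brackets; the dotted lines are the 25.4% and 10.4% of all tested genes. Replication, recombination and mitosis lie well past the line for higher genes, and ribosomal protein, sterol and AP-1 genes past the line for lower genes.

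Interferon-stimulated genes were called lower in 14 of 45 cases and higher in 8 (median log2 change -0.15), a balance that turned on FPKM as deposited (14 and 17) and on TPM (12 and 19). Without E545K replicate 1 they were 9 and 5. IFI44L had 1.94 and 1.46 FPKM in E545K, against 7.31 and 7.79 FPKM in WT (log2 change -1.92, SE 0.10, adjusted p 1.62e-08), and IFITM1, a membrane protein that hinders virus entry, fell by 1.49. The transcription factor STAT2 rose by 0.42. HLA class II genes, which present antigen to helper T cells, were lower in 7 of 17 cases and higher in 2. CD74, the invariant chain, had 6.25 and 8.24 FPKM in E545K and 27.23 and 28.35 FPKM in WT (log2 change -2.09, SE 0.15, adjusted p 1.21e-07), and HLA-DRA fell by 1.57. In HLA class I and peptide loading 5 of 18 were higher and 1, B2M, lower (log2 change -0.73). In conditioned medium 42 interferon genes, 9 class II genes and 15 class I genes were higher in E545K than in WT, and 3, none and none were lower. Under palbociclib 28 interferon genes were higher and 1 lower, against 8 higher and 14 lower in DMSO. Since the DMSO balance turned with the scaling, a reversal between these media is not established. Under palbociclib, too, 4 class II genes were higher and 9 lower, and 8 class I genes were higher and 1 lower.

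Of 12 markers of epithelium and intestine 10 passed the filter on low values, while KRT20 and CDX1 were under 1 FPKM in all 4 libraries. EPCAM, an epithelial adhesion molecule, was at 354.75 and 361.59 FPKM in E545K and 416.55 and 400.29 FPKM in WT (log2 change -0.48). Of the 10 tested markers 1 was called higher and 3 lower, but 4 and 3 with quantile normalization and 4 and 2 on TPM. CDX2, the intestinal identity factor, had 44.46 and 45.56 FPKM in E545K, against 19.44 and 18.71 FPKM in WT (log2 change 0.92, SE 0.13, adjusted p 4.07e-05). LGALS4, a galectin of enterocytes, was at 0.85 and 0.79 FPKM in E545K and 6.55 and 5.31 FPKM in WT (log2 change -2.16, SE 0.15). Of 20 tested genes of differentiated enterocytes and goblet cells 9 were higher and 5 lower, but 6 and 7 with quantile normalization, and the higher calls dropped to 4 without E545K replicate 1 or WT replicate 2 and to 5 without WT replicate 1; the mucin MUC2 rose by 0.30 and MUC13 fell by 1.32. Among 23 Wnt targets and stem cell genes 4 were higher and 7 lower, a balance that turned on FPKM as deposited (9 and 7) and on TPM (9 and 4). The stem cell receptor LGR5 had 14.74 and 12.94 FPKM in E545K and 4.49 and 4.60 FPKM in WT (log2 change 1.17, SE 0.15), whereas SOX9 fell by 0.66 and CD44 by 0.61. LGR5 and CDX2 were higher in E545K in all 3 media.

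Of 11 markers of non-epithelial cells 6 passed the filter on low values, and the 1 that was called (on FPKM as deposited 2 were higher and 1 lower, on TPM 3 and 1) was VIM, with 57.88 and 55.25 FPKM in E545K and 79.22 and 83.93 FPKM in WT (log2 change -0.81, SE 0.09). Epithelial and mesenchymal genes were called higher in 7 of 29 cases and lower in 5 (7 and 13 on scaled values alone, 3 higher without WT replicate 1, 3 lower without E545K replicate 2), with ZEB1, a repressor of epithelial genes, down by 0.58. Among 20 matrix proteases and their inhibitors 4 were higher and 2 lower (4 and 6 on scaled values alone, 2 higher without WT replicate 1), with the inhibitor TIMP2 up by 1.04 and TIMP3 down by 1.45. Keratins were called higher in 2 of 19 cases and lower in 5, but 7 and 5 on FPKM as deposited and 9 and 3 on TPM, and the lower calls dropped to 2 or 3 without any 1 library: KRT80 rose by 1.11 and the basal keratin KRT14 fell by 1.84. HOX genes, which keep positional identity, were lower in 12 of 26 cases and higher in 5. HOXA9 had 101.12 and 100.08 FPKM in E545K, against 159.49 and 162.08 FPKM in WT (log2 change -0.96, SE 0.06), and HOXA4 fell by 1.49, while HOXB13, a factor of the distal gut, rose by 0.76.

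Cell death, lysosome and tRNA charging genes were mixed. In the BCL2 family 2 of 16 were higher and 4 lower (5 and 4 on TPM). PMAIP1, which encodes the death-promoting protein NOXA, had 31.37 and 27.71 FPKM in E545K and 61.22 and 60.07 FPKM in WT, a change called lower, and MCL1, the survival factor it binds, was also lower (log2 change -0.74). Among 34 lysosome and autophagy genes 5 were higher and 6 lower, but 17 and 6 on FPKM as deposited and 22 and 4 on TPM, and 2 higher without E545K replicate 2. The sialidase NEU1 had 15.41 and 15.69 FPKM in E545K and 30.15 and 30.13 FPKM in WT. Of 20 cytosolic aminoacyl tRNA synthetases 5 were higher, FARSA with a log2 change of 0.65, and 2 lower, CARS1 and YARS1. On FPKM as deposited 12 were higher, and leaving out any 1 library left 2 or 3 higher.

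The same comparison of the lines in the other media uses none of these 4 libraries. Of the 3202 genes higher in E545K DMSO, 2317 (72.4%) were also called higher under palbociclib, where 32.0% of all tested genes were, and 644 (20.1%) in conditioned medium, where 15.8% of all tested genes were. In conditioned medium 444 (13.9%) were called lower. Of the 1311 lower genes, 1023 (78.0%) were also lower under palbociclib, where 19.4% of all genes were, and 417 (31.8%) in conditioned medium, where 15.7% were, while 193 (14.7%) were called higher there. Calls of one direction in all 3 media were made for 560 higher genes (4.44% of those tested) and 376 lower genes (2.98%). These were 17.5% of the genes called higher in DMSO and 28.7% of those called lower. Of the 28 named genes, 10 of the 14 higher and 10 of the 14 lower kept their direction in all 3 media. They were chosen for large changes, which favours repeat calls. Among those kept were MSLN, PTN, CRIP1, ICAM1 and SLCO2A1 on the higher side. On the lower side were HBE1, MAGEA6, AGMO, A2ML1 and NRN1.

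The test of the difference itself took the mean of the E545K minus WT changes in the other media less that in DMSO. This signed value was called positive in 975 genes (7.73%) and negative in 1894 (15.0%). For a gene lower in E545K, a positive value means a smaller or reversed fall elsewhere. Opposite shifts in palbociclib and in conditioned medium cancel in the mean. The value subtracts the DMSO difference, so genes chosen for a large one lean toward a smaller difference elsewhere by that choice. Over the replication list the median log2 change was 0.36 in DMSO, 0.62 under palbociclib and -0.15 in conditioned medium, and over the sterol list -0.89, -0.97 and 0.22. For the beta-globin region it was -1.16, -1.54 and -1.44, and for ribosomal proteins -0.73, -0.68 and -0.39, so these kept their sign.

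**Figure D4:**
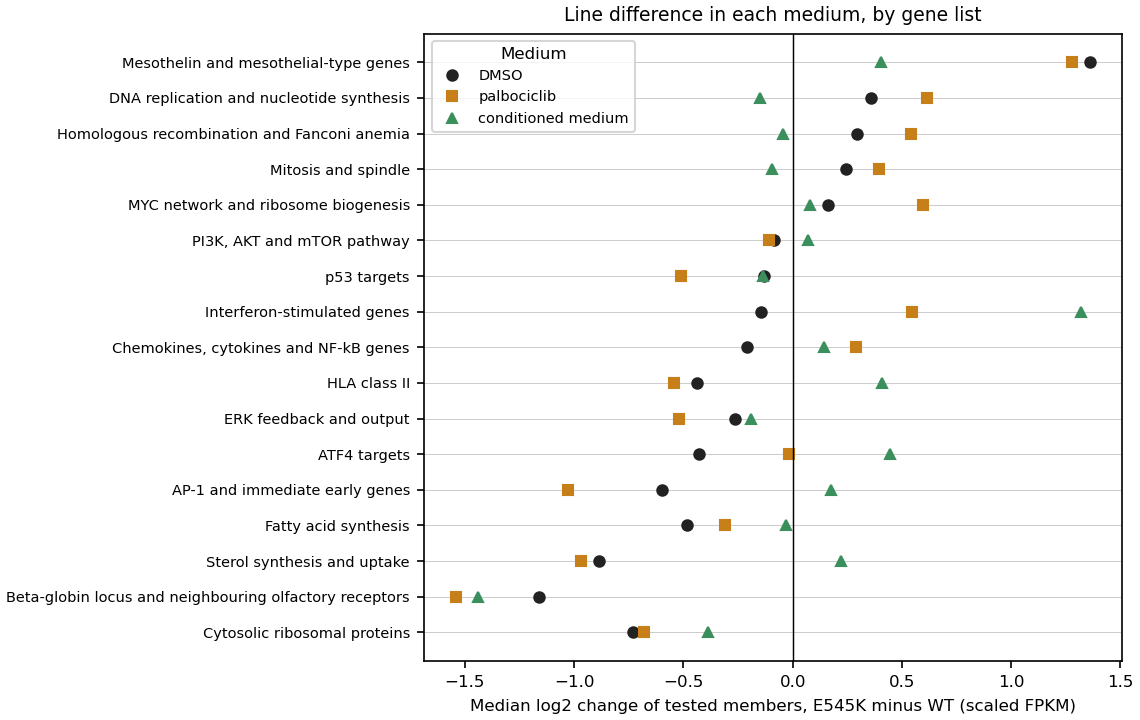
Median log2 change of the tested members of 17 gene lists, E545K minus WT on scaled FPKM, in DMSO (circles), palbociclib (squares) and conditioned medium (triangles). Sterol, AP-1 and replication genes lie on opposite sides of 0 in DMSO and in conditioned medium, while the medians of the beta-globin region, ribosomal proteins and mesothelin-type genes keep their side. Among mesothelin-type genes 6 were called higher and 5 lower in conditioned medium. That list was drawn up knowing that several members rose here.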

How the data were processed

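Poly(A) RNA of LoVo cells was sequenced. The authors deposited FPKM with 2 decimals, 1 column per library, per the file headers. The build is GRCh38 and the tools listed are RSEM 1.3.1, DESeq2 1.4.5, HISAT2 2.1.0 and, beside these, Bowtie2 2.3.4.3, per the submitters' processing notes, which give no roles. Read depth is unknown.

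limma 3.58.1 in R 4.3.3 was run on log2(FPKM + 1) of the 18 libraries, 9 groups of 2, with moderated spread pooled over groups (9 residual degrees of freedom), an intensity trend and Benjamini-Hochberg adjustment over 12607 genes. Scale factors were medians of ratios over 10690 genes at an FPKM of at least 1 in every library. The test was run on simulated data first. Promoter motifs were chosen after seeing how often they occurred. The 8 libraries of a second table, also FPKM as deposited, were not used.

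Members and gene lists were chosen with earlier results of these data known. Named genes were PIK3CA, the 14 largest rises and 14 largest falls among called genes with a mean of at least 5 FPKM in the higher line and no overlap of libraries, and then, from each list, up to 4 called members per direction and others whose role was needed. Coordinates and symbols were matched by Gene ID to RefSeq (12584 of 12607 genes). Replicate numbers were not taken as pairs: deviations of replicates correlated over 0.1 in 15 of 36 pairs of groups, and at 0.19 between E545K DMSO and WT DMSO. Alternatives were another pseudocount, no filter, other scalings, fewer groups in the fit, a replicate block, stricter thresholds and leaving out each library. Some genes of the lists enter the counts but are not reported here by name.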

Additional observations from a re-analysis of the deposited data

Results flagged for a closer look

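In 14 of the 29 genes named first (PIK3CA and the 28 with the largest changes), the E545K minus WT difference depended on the medium. Here and below, this means only that the test described next called the gene. The value given is the mean of the differences under palbociclib and in conditioned medium less that in DMSO, on the log2 scale, tested with limma. The 28 genes were chosen for their change in DMSO, which this value subtracts, so a lean toward smaller differences elsewhere is built in. It was positive for CXCL8 (2.33, adjusted p 8.51e-06), S100P (2.15, adjusted p 6.02e-06), CCL26 (1.65, adjusted p 0.000644), SCD (1.15, adjusted p 3.03e-06), PIK3CA (0.542, adjusted p 0.0353) and ICAM1 (0.354, adjusted p 0.036). It was negative for DKK1 (-0.933, adjusted p 7.93e-06), ZNF629 (-0.701, adjusted p 0.000143), LRRN4 (-0.697, adjusted p 0.000602), ANXA8 (-0.616, adjusted p 0.00567), FAM151A (-0.583, adjusted p 0.0341), IL37 (-0.583, adjusted p 0.00785), MAGEA6 (-0.531, adjusted p 0.00295) and PPP1R10 (-0.522, adjusted p 0.00218).

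S100P had a log2 change of -2.70 in DMSO and -3.00 under palbociclib, but 1.89 in conditioned medium. CXCL8 was at -2.48 in DMSO, against -0.10 and -0.19 in palbociclib and conditioned medium. The test can miss genes, since opposite shifts in the other media cancel in the mean. INSIG1 was at -2.43 in DMSO, -4.73 under palbociclib and 0.10 in conditioned medium, yet was not called. LRRN4 and DKK1 were higher in E545K in DMSO and under palbociclib and lower in conditioned medium. Over all lists, 345 of 1177 distinct members (29.3%) had a difference that depended on the medium, against 2869 of all 12607 tested genes (22.8%).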

How the results depend on the processing

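The 28 named genes were called in the same direction in all 420 combinations of gene and alternative, and PIK3CA was called on FPKM as deposited (0.46), on TPM (0.58) and with only the E545K and WT groups in the fit (0.21, chosen after seeing the data). The 28 named genes were chosen for large called changes, which favours such agreement. Their smallest change in size was 1.64 (OR2A7) and their largest adjusted p from limma was 0.00127 (HBA2). The 2 stricter thresholds could therefore not drop any of them. Scaling set the counts. On FPKM as deposited alone 6096 genes were higher, and 1099 higher in all 3 media. On TPM these were 6905 and 1457. Scaled values alone gave 3010 lower genes and 681 lower in all 3 media, and quantile normalization 2811 and 633. An adjusted p under 0.01 left 310 genes higher and 217 lower in all 3 media and 1656 whose difference depended on the medium, against 560, 376 and 2869. A log2 change of at least 1 left 189 higher and 134 lower, 19 and 18 in all 3 media and 199 that depended on the medium. With only the E545K and WT groups in the fit, 850 genes were higher in all 3 media.

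Leaving out 1 DMSO library, whose partner was then assumed to vary like the other groups, gave 2463 to 2547 higher genes, 953 to 1077 lower, 445 to 460 and 291 to 314 in all 3 media, and 1972 to 2167 that depended on the medium. A replicate block gave 3218 higher and 1317 lower genes, 573 and 379 in all 3 media and 2918 that depended on the medium; the numbers are shared labels and not a pairing. Of 1230 list counts under alternatives, 313 moved by over 1.5 times. With 2 libraries a line and no other untreated WT library, the comparison cannot be run without the WT DMSO libraries, which had the lowest scale factors.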
